A study of Canis lupus familiaris with 33 samples.

Results

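The genes described here are the multi-exon genes of canine chromosome 22. They are the entries of the deposited count table that lie on chromosome 22, have at least 2 separate exons once overlapping exons are merged, and span less than 500 kb. A gene whose span contains position 3100000 was left out. The rule gave 372 members of the 30951 genes in the table. Chromosome 22 has 489 entries in all, and besides the members these are 110 single-exon genes, 6 multi-exon genes that span 500 kb or more, and 1 gene that contains the left-out position. The members run from position 74957 to 61378111 of the CanFam3.1 assembly, with 188 on the plus strand and 184 on the minus strand. Their number of merged exons ran from 2 to 86 with a median of 4, and their exonic length ran from 156 to 14871 bp with a median of 1440 bp. The chromosome was chosen by the tumour and control expression values of these same libraries, in both preservations, so the tumour and control values of its members are given as a description. Where edgeR calls of single members are counted for that contrast, they stand beside the share of all genes called and support nothing.

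The libraries came from oligodendroglioma, a tumour of glial cells, and from brain labelled healthy, which served as the control. Tissue was taken at necropsy, 1 to 18 hours after death, and was stored either in paraffin after formalin fixation (FFPE) or in the freezer (fresh-frozen). The study asked how expression differs between tumour and healthy brain and how the 2 kinds of preserved tissue compare. There were 33 libraries from 25 dogs, and 8 dogs gave a library of each kind. The FFPE tumours were from 11 dogs, of which 6 were French Bulldogs, 4 were Boxers and 1 was a Pomerian, with 9 labelled Grade III and 2 labelled Grade II and ages of 4.7 to 12 years in the 9 dogs with a stated age. The FFPE controls were from 10 dogs, of which 5 were French Bulldogs, 4 were Boxers and 1 was a Bolonka Swetna, with ages of 2 to 8 years stated for 5. The fresh-frozen tumours were from 6 dogs, of which 3 were French Bulldogs, with 1 Boxer, 1 Border Terrier and 1 Pomerian, 5 labelled Grade III and 1 labelled Grade II, and ages of 4.7 to 10 years stated for 5. The fresh-frozen controls were from 6 dogs, of which 2 were French Bulldogs and the others a Hovawart, a Mongrel, a Berner sennenhund and a Bolonka Swetna, with ages of 2.8 to 10.2 years stated for 5. The tumours and controls of a preservation were different dogs, and breed was not matched in the fresh-frozen groups.

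Canine chromosome 22 carries counterparts of genes on the long arm of human chromosome 13. That arm carries genes of varied roles, among them the endothelin receptor gene EDNRB, the glypican genes GPC5 and GPC6, which encode cell-surface proteoglycans, the protocadherin gene PCDH9 and the basement membrane collagen genes COL4A1 and COL4A2. A gain or loss of a chromosome or an arm in tumour cells can move the RNA of many of its genes together, and so can a change in which cells a tissue holds. No DNA was measured in these samples, so chromosome copy number was not observed. In bulk tissue, fewer cells of a type and less RNA per cell cannot be told apart. The table gives Ensembl identifiers without names, and a RefSeq table of assembly UU_Cfam_GSD_1.0, with 227 protein-coding genes on its chromosome 22, matched 0 of them. Members are therefore described by position, exon number and length, marker genes could not be used to check the labelled tissue, and none of the genes named above is tied to a value.

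Depth differed widely among the libraries. Total counts per library ran from 406406, in the FFPE control of dog 50315, to 32584840, in the FFPE control of dog 60126. The members together took 0.407% to 1.09% of a library, which amounted to 2039 to 311417 counts. Of the 372 members, 132 had enough counts to be tested in both tumour comparisons, and these held 99.3% of all member counts, with a median of 11 exons and of 2339 bp of exons. A further 26 passed the count filter in fresh-frozen tissue alone and held 0.434% of the member counts. The remaining 214 passed in neither, and 165 of them had under 50 counts in all libraries together, so their levels were not measurable at this depth. Dog 60462, a control, stood apart, with counts in 345 members in its FFPE library and in 338 in its fresh-frozen library, against 135 to 279 in the other libraries. In the fresh-frozen libraries, the second principal component of log2 CPM within groups, with 23.3% of the variance, set dogs 60126, 60127, 60461 and 60462 apart from the other 8. Mitochondrial genes took 9.61% to 34.6% of the counts in FFPE tumours and 13.9% to 40.3% in FFPE controls, and 4.07% to 23.3% in fresh-frozen tumours and 9.94% to 19.8% in fresh-frozen controls. With mitochondrial genes left out of the fits, the counts of members called in tumours against controls given further on, 25 in FFPE and 37 in fresh-frozen tissue, were 22 and 35, where 21.5% and 29.1% of all genes were called.

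The level of a member in a library was its log2 CPM, the base 2 logarithm of CPM (counts scaled to a common library total) with a prior count of 2. The shift of chromosome 22 in a library was the median, over the 132 members tested in both comparisons, of the log2 CPM minus the control mean of the same preservation, less the same median over tested genes outside chromosome 22. A control was set against the mean of the other controls. A shift of 0 means that the members stood, on balance, where they stood in controls relative to the rest of the genome.

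In FFPE tissue the members were lower as a group in some tumours and higher in others. Dog 60792, a Boxer, had the lowest tumour shift at -0.85, followed by dog 60177, a French Bulldog, at -0.78. Dogs 60749 and 43917 followed at -0.50 and -0.42. These 4 tumours lay below the lowest of the 10 controls, which was -0.29 in dog 45726. The shifts of dogs 60636, 60461 and 44331 were -0.19, -0.08 and -0.07, which lay within the range of the controls, as did those of dogs 60679, 51234 and 50416 at 0.17, 0.22 and 0.35. The tumour of dog 60127, the Pomerian, had the highest shift at 0.45, above the highest control, dog 60126, at 0.38. The mean shift was -0.15 ± 0.44 (SD, n = 11) in FFPE tumours and 0.01 ± 0.19 (SD, n = 10) in FFPE controls, so the mean difference was smaller than the spread among tumours. Without dog 60792 the tumour mean was -0.09, and without dog 60127 it was -0.22.

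The shift is a median over the 132 members, so a tumour with a low shift has most members below 0 by definition. The counts below the control mean given here were taken after the median over genes outside chromosome 22 was subtracted. Those below or above every control were taken on the log2 CPM without that step. In the FFPE tumour of dog 60792, 108 of the 132 members lay below their control mean, and 56 (42.4%) lay below every FFPE control, against 12.2% of other genes tested. In dog 60177, 107 lay below the control mean and 41 (31.1%) below every control, against 11.1% of other genes. Dogs 60749 and 43917 had 37 and 27 members below every control, shares of 28.03% and 20.5% against 16.9% and 10.02% of other genes. The tumour of dog 60127 differed from these, with 36 members below the control mean, 3 below every control and 25 (18.9%) above every control, against 11.001% of other genes. In the tumour of dog 50416, 42 members (31.8%) lay above every control, against 20.9% of other genes. The shallow control library of dog 50315 had 51 members (38.6%) below every other control beside 34.2% of other genes, so shares of this kind also occurred in a library without a chromosome-wide shift.

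Fresh-frozen tumours had a lower mean shift and a narrower range. The shifts were -0.65 in dog 60749, -0.64 in dog 60461, -0.27 in dog 60631, -0.26 in dog 60679 and -0.21 in dog 60636, all of which lay below the 6 controls. The fresh-frozen tumour of dog 60127 was the exception at 0.11. When all libraries were thinned to the depth of the shallowest, 81 of the 132 members were left in fresh-frozen tissue. Over these, dog 60636 was at -0.03, within the controls, and 4 of 6 fresh-frozen tumours lay below the lowest control. With no median over other genes subtracted the number was also 4. The controls were -0.14 in dogs 60459 and 60460, -0.11 in dog 60629, -0.06 in dog 60516, 0.19 in dog 60462 and 0.24 in dog 60126. The mean was -0.32 ± 0.29 (SD, n = 6) in tumours and -0.00 ± 0.17 (SD, n = 6) in controls. Both controls above 0 and the tumour above 0 were among the 4 libraries that stood apart, as was the tumour of dog 60461 with its low value. Without dogs 60126, 60127, 60461 and 60462 the tumour mean was -0.26. In the fresh-frozen tumours of dogs 60461 and 60749, 75 (56.8%) and 73 (55.3%) members lay below every control, against 33.1% and 31.6% of other genes. The shares were 40.2%, 36.4% and 33.3% in dogs 60631, 60679 and 60636, against 30.7%, 23.02% and 22.4%. In dog 60127 the share was 21.2%, against 27.3% of other genes.

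**Figure D1:**
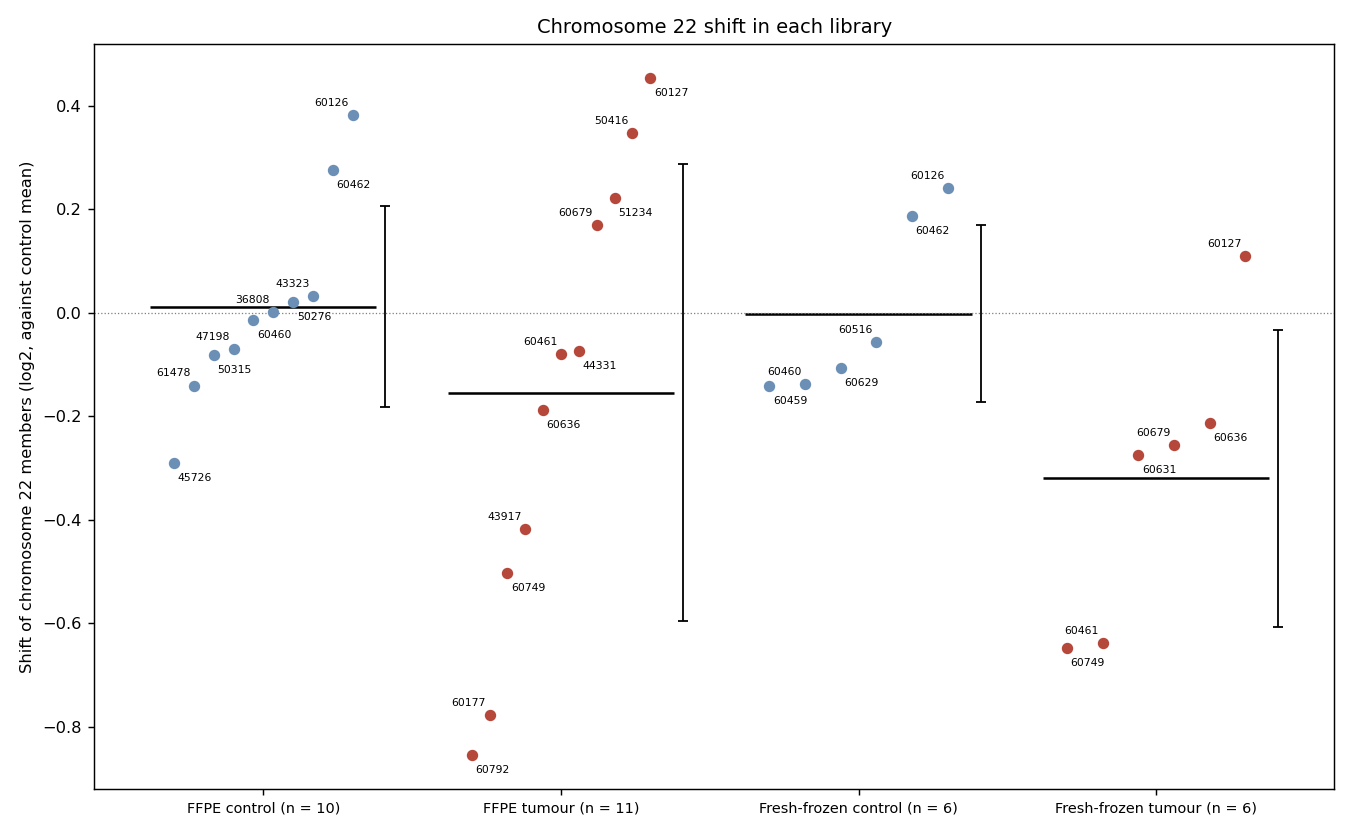
Shift of chromosome 22 (log2, against the control mean of the same preservation) in each of the 33 libraries, labelled by dog number; horizontal lines are group means and the bars beside them 1 SD. FFPE tumours run from -0.85 to 0.45 and fresh-frozen tumours from -0.65 to 0.11, with 4 of 11 and 5 of 6 below the lowest control.

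The 5 tumour dogs with both kinds of tissue allow the preservations to be compared within the animal. Dog 60749 had the lowest shift of the 5 in both, at -0.50 in FFPE and -0.65 in fresh-frozen tissue, and dog 60127 the highest in both, at 0.45 and 0.11. Dog 60636 differed least between preservations, at -0.19 and -0.21. Dog 60461 was at -0.08 in FFPE and at -0.64 in fresh-frozen tissue, and dog 60679 was at 0.17 and -0.26, so these tumours lay within the controls in FFPE and below them in fresh-frozen tissue. The FFPE shift was higher in 5 of 5 dogs, by 0.30 ± 0.21 (SD, n = 5). With libraries thinned to equal depth the difference was 0.20, from the 66 members left in FFPE and the 81 left in fresh-frozen tissue. No p is given for it, since the shifts of both preservations were in view when the chromosome was chosen. The controls with both were also slightly higher in FFPE, with 0.38 and 0.24 in dog 60126, -0.01 and -0.14 in dog 60460, and 0.28 and 0.19 in dog 60462. The library of each preservation was set against its own controls, and these were partly different dogs.

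The same shift was computed for the multi-exon genes under 500 kb of each of the 38 autosomes. Chromosome 22 was the lowest of the 38 in the FFPE tumours of dogs 60792, 60177 and 43917 and in the fresh-frozen tumours of dogs 60461 and 60636. It ranked from 2 to 5 in the FFPE tumours of dogs 60636, 60749 and 60461 and in the fresh-frozen tumours of dogs 60749, 60679 and 60631. At the other end it ranked 36 in the FFPE tumour of dog 60127 and 31 and 32 in those of dogs 60679 and 51234. By the group mean, chromosome 22 was the lowest autosome in fresh-frozen tumours, with chromosomes 37 and 36 next at -0.28 and -0.22. In FFPE tumours it was second to chromosome 36, at -0.17. The spread over the FFPE tumours, an SD of 0.44, was the largest of the 38 autosomes. Chromosomes 14, 20 and 36 came next, at 0.41, 0.41 and 0.39. In the FFPE tumours of dogs 60792, 60177, 60749 and 43917, chromosome 36 was at -0.60, -0.57, -0.65 and -0.40. It was at 0.57 in dog 60127. Chromosome 14 was at -0.42, -0.42, -0.71, -0.37 and 0.32 in the same dogs, so low values in these tumours were not particular to chromosome 22. In fresh-frozen tumours chromosome 22 ranked 8 by SD. A control can also rank low, as the fresh-frozen control of dog 60459 did at rank 3 with a shift of -0.14.

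**Figure D2:**
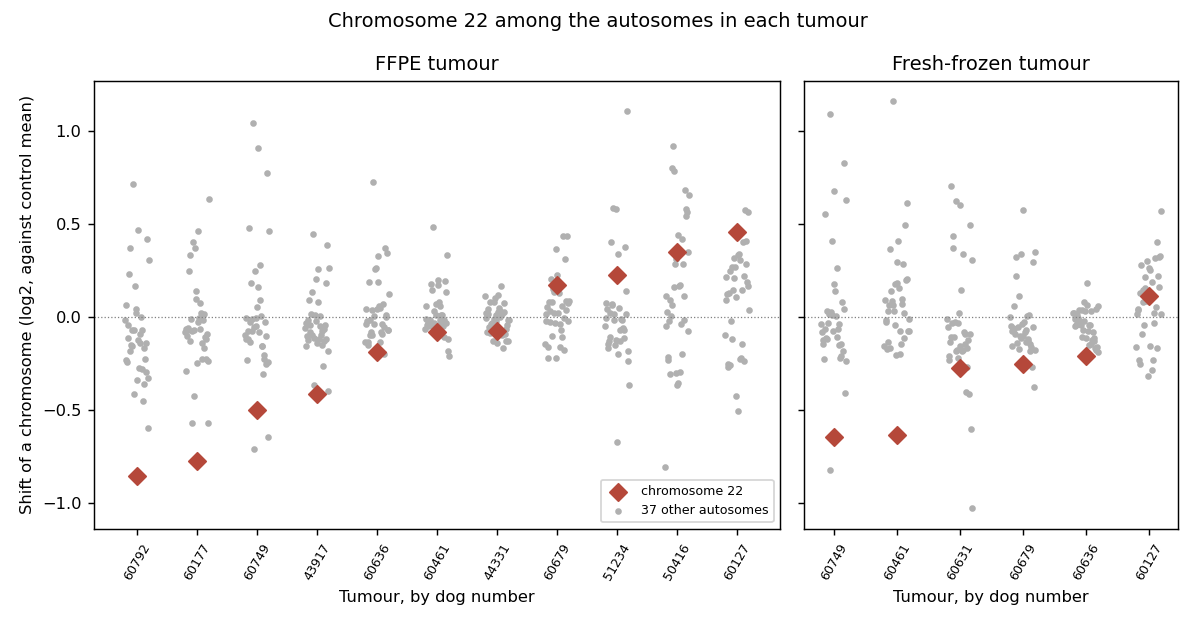
Shift (log2, against the control mean) of chromosome 22 (diamonds) and of the 37 other autosomes (grey points) in each tumour, ordered by the shift of chromosome 22. Chromosome 22 lies at or next to the bottom in dogs 60792 and 60177 and among the highest in the FFPE tumour of dog 60127.

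The members were then divided by the midpoint of the gene into segments of 10 Mb, to see whether the shift ran along the chromosome. The first 10 Mb held 49 of the 132 members, the 10 to 20 Mb segment held 3 and is left out here, and the others held 12, 12, 21, 21 and 14. In the FFPE tumours of dogs 43917, 60177, 60636, 60749 and 60792 all 6 segments were below 0. All 6 were also below 0 in the fresh-frozen controls of dogs 60459 and 60629, where the lowest segments were -0.21 and -0.17. In the FFPE controls of dogs 45726 and 61478, 5 of the 6 were below 0. Dog 60792 ranged from -1.23 to -0.50 over the segments, and dog 60177 from -1.10 to -0.51. In the FFPE tumour of dog 60127 none of the 6 was below 0, and the range was 0.13 to 0.61. Dog 51234, whose shift was 0.22, had segments from -0.32 to 0.32.

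The distance between the highest and the lowest of the 6 segments was 0.35 to 0.85 in the FFPE tumours. In the fresh-frozen tumours it was 0.33, in dog 60636, to 1.06, in dog 60461. In the controls it was 0.22 to 0.93 in FFPE and 0.16 to 0.52 in fresh-frozen tissue, so the FFPE tumours lay within the range of their controls. In fresh-frozen tumours the members between 50 and 60 Mb had the lowest mean shift of the 6 segments, at -0.58 ± 0.46 (SD, n = 6), and there all 6 tumours lay below the lowest control. Those between 30 and 40 Mb had a mean of 0.16 ± 0.38, and dogs 60631 and 60127 had shifts of 0.60 and 0.59 there. The fresh-frozen controls had a mean of 0.02 ± 0.34 in that segment, with dog 60462 the highest at 0.54. In FFPE tumours the members between 30 and 40 Mb had a mean of -0.19 ± 0.50, and those between 50 and 60 Mb a mean of -0.28 ± 0.45 (SD, n = 11). The fresh-frozen tumour of dog 60461 ran from -0.98 to 0.08, that of dog 60631 from -0.42 to 0.60, and that of dog 60749 from -1.30 to -0.39. In the first 10 Mb, with the most members, the means were -0.24 ± 0.47 in FFPE and -0.32 ± 0.30 in fresh-frozen tumours. A segment of 12 members gives a less precise median than one of 49, and the segments were not tested.

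**Figure D3:**
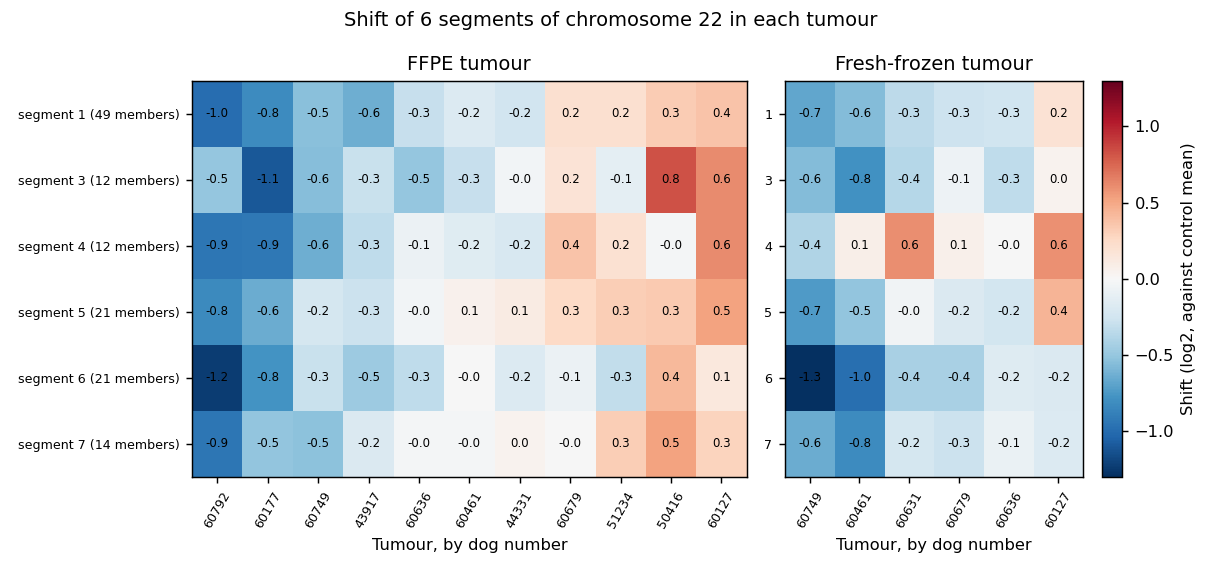
Shift (log2, against the control mean) of 6 segments of chromosome 22 in each tumour, with blue below 0 and red above; segments are 10 Mb long, numbered from the start of the chromosome, and segment 2, with 3 members, is not drawn. All 6 are below 0 in the FFPE tumours of dogs 60792, 60177, 60749, 43917 and 60636.

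Single members were compared with edgeR's quasi-likelihood test, fitted over all genes, with a Benjamini-Hochberg adjusted p under 0.05 as the call. The share of all tested genes called is printed beside each count, and nothing is read from the difference because this contrast was in view in the choice of chromosome. In FFPE tissue 25 of 132 members (18.9%) were called, 10 higher and 15 lower in tumours, where 21.1% of all genes were called, 10.1% higher and 11.1% lower. In fresh-frozen tissue 37 of 158 (23.4%) were called, 14 higher and 23 lower, where 30.5% of all genes were called, 18.3% higher and 12.2% lower. The median log2 fold change of the members was -0.09 in FFPE and -0.22 in fresh-frozen tissue, against 0.02 and 0.10 over all genes. The FFPE median depended on the setting. It was 0.004 without dog 60462, a setting chosen after seeing the data, and -0.02 without the dogs that have both kinds of tissue. Leaving out mitochondrial genes gave -0.05, leaving out Grade II tumours -0.10, and dropping the filter on low counts -0.81. In fresh-frozen tissue 102 of the 158 members had a negative fold change (64.6%, against 45.5% of all genes tested), and in FFPE tissue 71 of 132 did (53.8%, against 48.97%). Without dogs 60126, 60127, 60461 and 60462, whose fresh-frozen libraries stood apart, 18 members were called in fresh-frozen tissue, 7 higher and 11 lower, where 15.2% of all genes were called. Without the dogs that have both kinds of tissue, 7 were called in FFPE tissue, where 9.52% of all genes were called.

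Of the 132 members tested in both, 10 were called lower in both preservations, 7 were called higher in both, and 0 were called in opposite directions, while 92 were called in neither. Over all genes tested in both, 6.52% were called lower in both and 8.59% higher in both. The dogs with both kinds of tissue enter both comparisons, so these are not independent. In fresh-frozen tissue all 6 tumours lay below all 6 controls for 15 members and above them for 4, where 5.13% and 6.35% of all genes did so. In FFPE tissue 0 members separated the groups in either direction, where 0.277% and 0.127% of all genes did so. In FFPE tissue 10 of the called members lay in the first 10 Mb, 2 higher and 8 lower, 0 of the 27 tested between 10 and 40 Mb were called, and the others lay beyond 40 Mb. In fresh-frozen tissue 9 of those called lower lay in the first 10 Mb, 2 between 20 and 30 Mb, 1 between 30 and 40 Mb, 5 between 40 and 50 Mb, 4 between 50 and 60 Mb and 2 beyond 60 Mb.

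**Figure D4:**
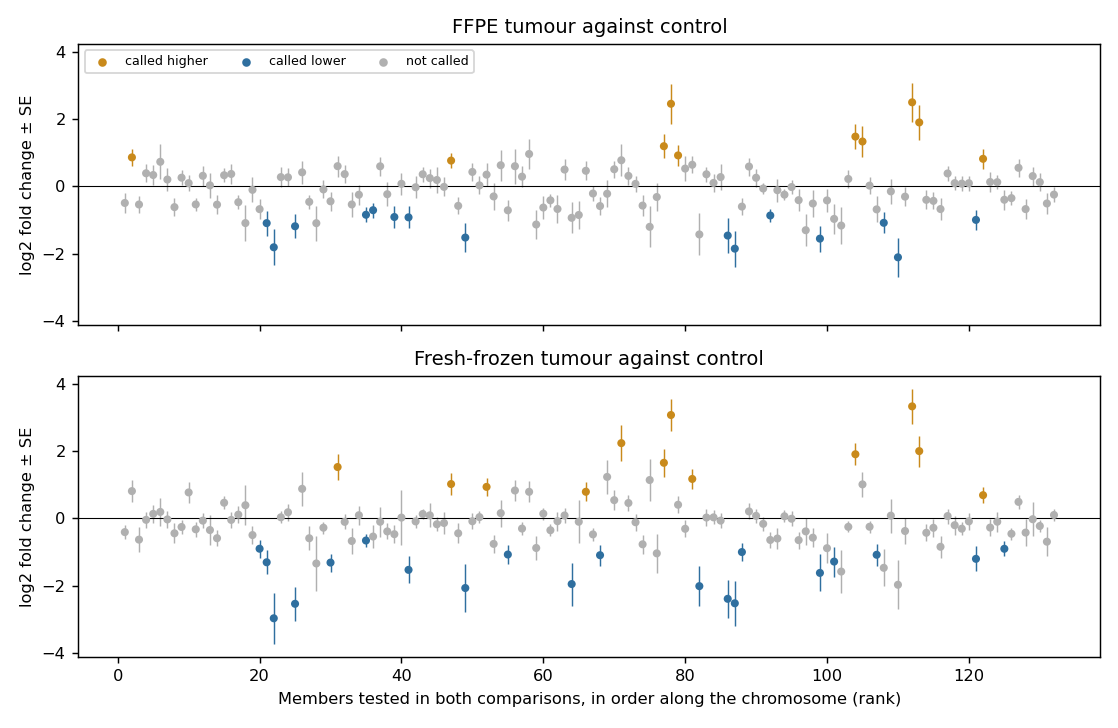
Log2 fold change of tumour against control, with 1 SE (vertical lines), for the 132 members tested in both comparisons, in their order along the chromosome, above for FFPE and below for fresh-frozen tissue. Of the FFPE calls, 15 are lower (blue) and 10 higher (orange), none of them between 10 and 40 Mb; the fresh-frozen calls include members of that stretch.

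The 10 members called lower in both preservations had log2 fold changes of -1.84 to -0.84 in FFPE tissue, with a median of -1.32, and of -2.96 to -0.65 in fresh-frozen tissue, with a median of -1.84. By the smaller of both changes the first was ENSCAFG00000047495, a gene of 2 exons and 1575 bp at chr22:47260825-47263913 on the plus strand. Its level in FFPE tumours ran from 0.43 to 5.86 log2 CPM with a median of 2.38, against 4.15 to 6.68 with a median of 5.68 in FFPE controls. In fresh-frozen tumours it ran from -1.11 to 4.71 with a median of 2.95, against 5.07 to 6.48 with a median of 5.86 in controls. The groups overlapped in FFPE tissue, where 8 of 11 tumours lay below every control, and did not overlap in fresh-frozen tissue. Dog 60749 had the lowest level of this gene among the tumours in both preservations, at 0.43 and -1.11. The log2 fold change was -1.84 ± 0.54 (SE) in FFPE and -2.52 ± 0.67 in fresh-frozen tissue.

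Its neighbour on the same strand, a gene of 5 exons at chr22:47117757-47259351, ends 1474 bp before it and was also called lower in both. That neighbour ran from 0.99 to 5.99 log2 CPM in FFPE tumours against 3.89 to 6.36 in FFPE controls, with medians of 3.24 and 5.22. In fresh-frozen tissue it ran from 0.54 to 4.73 in tumours against 5.17 to 6.56 in controls. As with the first gene, 8 FFPE tumours and all 6 fresh-frozen tumours lay below every control. Its log2 fold changes were -1.46 ± 0.51 and -2.38 ± 0.57. Whether the 2 annotated genes are parts of 1 transcript was not tested.

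ENSCAFG00000028871, of 5 exons at chr22:4453715-4511037 on the plus strand, was the second by the same measure. In FFPE tissue its level was -1.51 to 4.25 log2 CPM in tumours, with a median of 2.29, and 1.36 to 5.89 in controls, with a median of 4.63. In fresh-frozen tissue it was -1.24 to 4.20 in tumours, with a median of 2.36, and 4.87 to 6.26 in controls, with a median of 5.92. The FFPE groups overlapped for 9 of the 11 tumours, whereas the fresh-frozen groups were apart. The lowest FFPE control, at 1.36, was dog 60462, which stood apart in the number of members with counts. The log2 fold change was -1.80 ± 0.54 in FFPE and -2.96 ± 0.76 in fresh-frozen tissue, where dog 60127 was again the highest tumour, at 4.20.

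The most abundant of the 10 lower members was a gene of 14 exons at chr22:8465797-8509955. It had median levels of 8.61 log2 CPM in FFPE tumours and 9.83 in FFPE controls, and of 8.92 and 10.8 in fresh-frozen tumours and controls. In FFPE tissue 5 of 11 tumours lay below every control, and in fresh-frozen tissue 6 of 6 did. Its log2 fold changes were -0.92 ± 0.32 and -1.52 ± 0.40. Members with many counts were thus among those called lower. A gene of 8 exons at chr22:6375577-6505672 had the smallest changes of the 10, at -0.84 ± 0.22 and -0.65 ± 0.19, and its fresh-frozen groups did not overlap either.

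The other lower members had between 2 and 37 exons. A gene of 13 exons at chr22:4874575-4903033 had log2 fold changes of -1.18 ± 0.35 in FFPE and -2.53 ± 0.51 in fresh-frozen tissue. A gene of 2 exons at chr22:9860827-9865412 had -1.52 ± 0.43 and -2.06 ± 0.72. A gene of 10 exons at chr22:3440923-3478683 had -1.09 ± 0.37 and -1.30 ± 0.36, with 5 of 6 fresh-frozen tumours below every control. The change of the 13-exon gene was larger in fresh-frozen tissue, and the test of that difference is given with the interaction. A gene of 4 exons at chr22:50429190-50470657, with -1.55 ± 0.38 and -1.61 ± 0.55, overlaps 1 gene of the same strand. A gene of 37 exons at chr22:60441938-60606389, with -0.99 ± 0.29 and -1.20 ± 0.37, overlaps 2 genes of the same strand. Reads in exons shared by genes of the same strand cannot be assigned to one gene. Overlap was taken from whole gene spans and shared exons were not examined, so the counts of these members may be uncertain.

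The 7 members called higher in both had log2 fold changes of 0.77 to 2.50 in FFPE tissue, with a median of 1.48, and of 0.69 to 3.33 in fresh-frozen tissue, with a median of 1.91. The first was ENSCAFG00000006062, a gene of 50 exons and 5033 bp at chr22:58512212-58588666 on the minus strand. Its level in FFPE tumours was 4.76 to 10.1 log2 CPM with a median of 7.29, against 3.67 to 7.06 with a median of 5.51 in controls. In fresh-frozen tumours it was 4.97 to 8.30 with a median of 6.51, against 2.86 to 4.15 with a median of 3.82 in controls. The fresh-frozen groups were apart, and in FFPE tissue 7 of 11 tumours lay above every control. The log2 fold change was 2.50 ± 0.57 in FFPE and 3.33 ± 0.52 in fresh-frozen tissue.

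A gene of 15 exons at chr22:58697175-58773297, on the opposite strand and 109 kb from the end of the 50-exon gene, was also called higher in both. Its log2 fold changes were 1.90 ± 0.52 and 2.00 ± 0.46. All 6 fresh-frozen tumours lay above every control, at 2.73 to 5.19 against 1.05 to 2.53 log2 CPM. In FFPE tissue 4 of 11 tumours lay above every control and 1 below, so the groups overlapped more there. Both genes lie between 50 and 60 Mb, the segment whose members had the lowest mean shift in fresh-frozen tumours, so the segment held members moving in opposite directions.

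ENSCAFG00000005323, a gene of 8 exons at chr22:45271709-45305346, was the second of the higher members. In FFPE tissue its level was 0.72 to 4.02 log2 CPM in tumours, with a median of 2.94, and -1.51 to 2.42 in controls, with a median of 0.61. In fresh-frozen tissue it was 2.67 to 4.84 in tumours, with a median of 3.37, and -0.10 to 1.55 in controls, with a median of 0.68. It was a low gene in control brain of both preservations, and all 6 fresh-frozen tumours and 6 of 11 FFPE tumours lay above every control. Its log2 fold change was 2.45 ± 0.60 in FFPE and 3.07 ± 0.49 in fresh-frozen tissue.

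**Figure D5:**
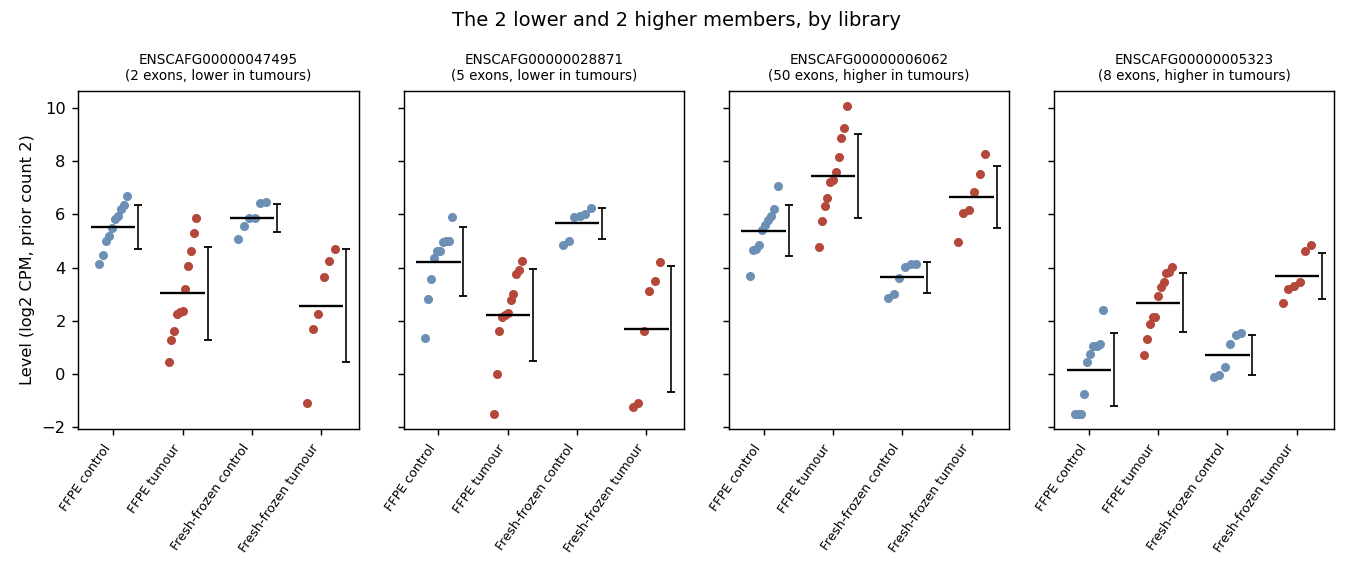
Level (log2 CPM, prior count 2) of 2 members lower and 2 higher in tumours, with 1 point for each library, group means as lines and 1 SD as bars. In each of the 4 panels the fresh-frozen tumours and controls are apart, whereas the FFPE groups overlap.

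The remaining higher members changed less. A gene of 12 exons at chr22:52146466-52372304, which overlaps 2 genes of its own strand, had log2 fold changes of 1.48 ± 0.36 and 1.91 ± 0.32. A gene of 2 exons at chr22:40763717-40765562 had 1.19 ± 0.36 and 1.65 ± 0.42. A gene of 9 exons at chr22:9592978-9670271 had 0.77 ± 0.23 and 1.02 ± 0.33, and it lay above every control in 8 of 11 FFPE tumours and in 3 of 6 fresh-frozen tumours. This was 1 of 2 higher members in which the changes were near or under 1 in both preservations. The other, of 15 exons at chr22:60602888-60623719, had 0.82 ± 0.29 and 0.69 ± 0.24. Its calls were lost more often than those of the other higher members in the settings run. Without a filter on low counts, without dog 60462 and without Grade II tumours it was called in neither preservation (edgeR adjusted p of 0.0503 to 0.101), although its direction did not change.

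Members near the limits of the rule, and genes beyond them, were set side by side without a test. The 8 tested members with 2 exons had a mean shift of -0.97 ± 0.63 (SD, n = 11) in FFPE tumours and -0.92 ± 0.40 (SD, n = 6) in fresh-frozen tumours. In FFPE controls these 8 were at -0.14 ± 0.53, from -0.98 to 0.91, and in fresh-frozen controls at -0.03 ± 0.05. The 17 tested genes of chromosome 22 with 1 exon, just outside the rule, had mean shifts of -0.00 ± 0.27 and -0.02 ± 0.21. The single-exon genes thus stood near their control level in both preservations. The 5 widest tested members, spanning 363.342 to 450.666 kb, had means of -0.44 ± 0.73 and -0.59 ± 0.46. The 5 tested genes that span 500 kb or more had -0.55 ± 0.75 and -0.92 ± 0.76, so the limit on span left out genes that were lower on average than the members. In controls these 5 genes had -0.10 ± 0.46 in FFPE, with a lowest value of -1.10, and 0.01 ± 0.21 in fresh-frozen tissue. Medians over so few genes thus also varied widely among FFPE controls. Among the members themselves, the 66 with the lower levels had means of -0.18 ± 0.47 and -0.37 ± 0.38, and the 66 with the higher levels -0.13 ± 0.44 and -0.27 ± 0.27. The 66 members with the shorter exonic length had -0.26 ± 0.44 in FFPE tumours against -0.05 ± 0.44 for the 66 with the longer, and in fresh-frozen tumours the values were -0.33 ± 0.34 and -0.29 ± 0.25.

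Preservation was compared over single members in the 8 dogs with both libraries, with tissue as a covariate. The libraries of a dog were entered as separate samples, without pairing. The choice of chromosome rested on tumour against control in both preservations. These libraries were thus in view in the choice, and the edgeR p-values are given as a description. Of 163 members tested, 1 was called, which was higher in FFPE tissue, where 2.6% of all genes were called, 2.5% higher and 0.0934% lower. The member was a gene of 2 exons and 1228 bp at chr22:3281316-3282689, with a log2 fold change of 3.11 ± 0.70 and an edgeR adjusted p of 0.0220. Over all libraries its median level was 2.64 log2 CPM in FFPE tumours and 3.54 in FFPE controls, and -0.42 and -0.70 in fresh-frozen tumours and controls. It overlaps 1 gene on the opposite strand, and counting used strand. With the dog as a block, which keeps the pairing, 2 members were called, where 3.39% of all genes were. The members at an unadjusted edgeR p under 0.05 were 37 with the block and 19 without it. Without dog 60127, 60461, 60636 or 60679 the count was 0, where 0.865% to 1.46% of all genes were called. The median log2 fold change of the members between preservations was 0.01, against -0.05 over all genes.

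Other members with small p in the preservation comparison did not pass the threshold. A gene of 7 exons at chr22:7003850-7046952 had a log2 fold change of 3.54 ± 0.96 for FFPE against fresh-frozen tissue and an edgeR adjusted p of 0.0577. It was near the detection limit, with medians of 0.23 log2 CPM or less in every group. A gene of 7 exons at chr22:27162397-27200871 had 1.47 ± 0.44 and an edgeR adjusted p of 0.0927. On the other side, a gene of 24 exons at chr22:61095044-61202152 had -1.40 ± 0.41 and an edgeR adjusted p of 0.0841.

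Whether the tumour effect differed between preservations was tested as an interaction over all 33 libraries. The libraries of a dog with both kinds of tissue were entered without pairing. The edgeR test called 0 of 156 members and 0 of 15714 genes, a background of 0%, with 4 members and 575 genes at an unadjusted p under 0.05. DESeq2 called 0 members, with 5 at an unadjusted p under 0.05. The interaction was the FFPE effect minus the fresh-frozen effect. It had a median of 0.24 log2 over the members against 0.00 over all genes. It was negative in 49 members (31.4%), against 49.99% of all genes. Both effects were in view in the choice, so these values and the interaction p-values are a description. The smallest p among members belonged to the 13-exon gene at chr22:4874575-4903033, with an interaction of 1.44 ± 0.60, an unadjusted p of 0.0222 and an edgeR adjusted p of 1.00. A gene of 5 exons at chr22:37912612-37925177 had the smallest p in the other direction, with -2.25 ± 0.96 and an unadjusted edgeR p of 0.0243. Its log2 fold changes were -1.20 ± 0.61 in FFPE and 1.14 ± 0.63 in fresh-frozen tissue, and neither was called.

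Breed and age among the FFPE tumours were not used in the choice of chromosome. The shift was -0.25 ± 0.51 (SD, n = 4) in Boxers, from -0.85 to 0.35, and -0.19 ± 0.39 (SD, n = 6) in French Bulldogs, from -0.78 to 0.22. The difference of -0.06 was smaller than the spread within either breed, with p = 0.857 in an exact two-sided permutation test over 210 splits and an adjusted p of 0.857. The adjustment is over 3 tests computed on shifts, of which that of preservation is not given. Both breeds thus held tumours well below and above 0. Across the 9 FFPE tumours with an age on their own label, the shift and age had Pearson's r = -0.09 (exact permutation p = 0.822) and Spearman's rho = -0.08 (exact permutation p = 0.843), with an adjusted p of 0.857 for r. The FFPE tumour of dog 60461, whose age of 8.8 years stands on its fresh-frozen label only, was not included. Without the 2 dogs farthest from the median age, r was 0.40 (exact permutation p = 0.378) and rho 0.25 (p = 0.595, n = 7). Grade was not tested, since the FFPE tumours included 2 of Grade II, dogs 51234 and 60679, whose shifts were 0.22 and 0.17.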

How the data were processed

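The deposited values are raw, unnormalised gene counts that the authors obtained with featureCounts 1.6.0 on Ensembl release 100 models of CanFam3.1, per the file headers. The header gives a minimum mapping quality of 10 and forward strand counting (option 1). The submitters' processing notes also name fastp and STAR, without versions. Per the labels' protocols, each fragment carried a molecular identifier of 12 nt, and any collapsing of reads by it before counting is not stated in the sources used, so counts may include amplified copies.

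Counts were fitted with edgeR 4.0.16 under R 4.3.3 (TMM scaling, filterByExpr, robust quasi-likelihood F tests, Benjamini-Hochberg at 0.05 over all tested genes), and DESeq2 1.42.0 was an alternative. Standard errors are the fold change divided by the root of F. Groups and dog numbers came from the labels. Libraries of 1 group are different dogs, and p-values measure the spread between these samples. In the preservation comparison and the interaction, the main fits did not pair the libraries of a dog, so those p-values leave the pairing out. No pair of libraries within a group agreed within sampling noise (chi-square per degree of freedom of 17.2 to 494 over 130 pairs). The dog number names the animal, and 7 of 8 dogs' deviations from group means correlated above 0.1 between preservations. Over all genes the correlation ran from 0.07 in dog 60636 and 0.12 in dog 60461 to 0.79 in dog 60127, so some pairs were only weakly alike.

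The members, segments and tests were chosen with earlier results of these data known. Members named in the text were those called in both tumour comparisons in the same direction, ordered by the smaller fold change; for preservation and the interaction they come from the 3 of smallest p in each direction. Gene lists and cell type markers that need names were not used here. Scripts were tested on simulated data. Alternatives were other scaling, filters, DESeq2, thinning to 406406 counts, other definitions of the shift, covariates, and subsets of dogs.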

Additional observations from a re-analysis of the deposited data

Results flagged for a closer look

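The 72 groups checked were of 4 to 10 libraries each, those of named members among them. In 4 of the 72, 1 library stood far from the others by Dixon's criterion, which chance alone meets in about 1 in 20 groups. The lower member at chr22:50429190-50470657 was at -1.51 log2 CPM in the FFPE control of dog 50315, below the other FFPE controls, and at 3.55 log2 CPM in the fresh-frozen control of dog 60516, above the other fresh-frozen controls. The higher member at chr22:60602888-60623719 was also at -1.51 log2 CPM in the FFPE control of dog 50315. That library was the shallowest, and -1.51 is the value of a gene with no count in FFPE tissue. The lower member at chr22:9860827-9865412 was at 2.56 log2 CPM in the FFPE control of dog 60462, whose libraries had counts in more members than any other.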

How the results depend on the processing

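The count of members called in FFPE tissue, 25, became 41 of 367 tested without a filter on low counts (8 higher and 33 lower, against 10 and 15), 16 without Grade II tumours, 7 without the dogs that have both libraries, and 0 (19 at an unadjusted p under 0.05) in those dogs alone. Over all genes the shares called, 21.1% at first, were 13.4%, 15.3%, 9.52% and 0.00665%. The fresh-frozen count, 37, became 1 in the dogs with both libraries and 18 without dogs 60126, 60127, 60461 and 60462, a setting chosen after seeing the data, where 2.47% and 15.2% of all genes were called. The preservation count, 1, became 5 by DESeq2, 3 without a filter, 0 with a mean of at least 50 counts, 2 with the replicate block of the dog, and 0 to 3 when each dog was left out; the shares of all genes were 5.51%, 1.52%, 0.951% and 3.39%, and 0.865% to 4.03%. It was 0 without dog 60127, 60461, 60636 or 60679 and 3 without dog 60749. The interaction count was 0 in every setting run, the replicate block included. Smaller sets of dogs hold fewer libraries, and for the other changes the cause was not tested.

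All settings kept the mean shifts negative. The median log2 fold change of the members in FFPE tissue did not stay negative, at 0.004 without dog 60462. The FFPE mean of -0.15 was -0.08 with no median subtracted and -0.23 without Grade II tumours, and -0.22 (without dog 60127) to -0.09 (without dog 60792) when libraries were left out in turn. The fresh-frozen mean of -0.32 was -0.21 when all libraries were thinned to the shallowest, and -0.41 (without dog 60127) to -0.25 (without dog 60749) when libraries were left out. The FFPE minus fresh-frozen difference of 0.30 was 0.20 thinned, 0.25 with a trimmed mean, and 0.23 to 0.37 without each dog in turn. Thinned values rest on fewer members, 66 in FFPE and 81 in fresh-frozen tissue, so they differ from the others in gene set as well as depth. Of the values of single named members, 256 kept their call and 79 kept their direction and lost it, 34 of these in the dogs with both libraries only. The 240 members not tested in FFPE tissue did not pass the count filter there, and 214 of these passed it in neither preservation.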
